A study of Mus musculus with 6 samples.

Results

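Forkhead genes encode transcription factors that share a winged-helix DNA-binding domain and are named Fox plus a subfamily letter and a number. Their genes were taken as every symbol in the table that begins with Fox, followed by one of the subfamily letters a to s and a number, with the antisense transcripts Foxd2os and Foxl2os left out. This gave 44 of the 24411 genes in the table, lying on 16 chromosomes. Of the 44, 17 passed the filter on low counts and were tested, which is 38.6% of the family, against 52.1% of all genes in the table. The other 27 are described by their counts, and 14 of these were at 0 in all 6 libraries.

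The libraries come from a pair of mouse endothelial cell lines. UV2, also written UV♀2, has the strain (BALB/c x C57BL/6)F1 and gave 3 libraries. bEnd.3, which was made from brain endothelium with the polyoma middle T oncogene, has the strain BALB/c and gave 3 libraries. Neither line was given a treatment that the other lacked: both were grown to confluency on 10-cm dishes, washed and held without serum for 3 days before trypsin-EDTA harvest. Each line stands for itself only, and the lines differ in origin and strain together, which cannot be told apart here. The labels do not state whether the 3 libraries of a line are separate cultures, and if they are not, the p-values rest on technical spread alone.

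Forkhead factors bind DNA, most of them as monomers, through a core that reads TGTTTAC or a close variant, and some can open closed chromatin. In endothelium, FOXO factors are held in the cytoplasm when AKT phosphorylates them and restrain growth when they are nuclear. FOXC and FOXF factors act in vessel formation, arterial and lymphatic specification and junction stability, FOXF2 and FOXQ1 are enriched in brain endothelium, and FOXM1 drives the genes of late cell cycle phases.

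Totals of expected counts per library ran from 21306441 to 26769149 in UV2 and from 21944529 to 28748128 in bEnd.3. Values below are CPM, counts put on one library total by TMM factors, given per library in the order of replicates 1, 2 and 3 or as mean ± SD (n = 3 libraries per line). Log2 fold changes are UV2 over bEnd.3 with their standard error (SE), and adjusted p-values are those of the edgeR quasi-likelihood test after Benjamini-Hochberg correction over 12720 tested genes. "Higher" and "lower" refer to UV2 at an adjusted p under 0.05. Of the 14 pan-endothelial markers, all were tested: 3 were higher, 6 were lower and 5 did not pass, and their summed level was 13113 to 14876 CPM in UV2 and 14061 to 14910 CPM in bEnd.3. Pecam1, an endothelial adhesion molecule, had 2166 ± 52.1 CPM in UV2 and 1951 ± 73.4 CPM in bEnd.3, and Cdh5, the endothelial junction cadherin, had 4039 ± 149.8 CPM in UV2 and 3958 ± 273 CPM in bEnd.3; neither passed the test. The tight junction gene Cldn5 went with the lines, at 0.262 ± 0.0736 CPM in UV2 and 1052 ± 63.3 CPM in bEnd.3. Some markers of other cells also differed. The 13 mural and fibroblast markers summed to 30.8 to 73.4 CPM in UV2 and 3.81 to 3.99 CPM in bEnd.3, with Pdgfrb, Pdgfra and Col3a1 higher and Des at 0. Col3a1 alone, with 32.1 CPM in UV2 and 0.954 CPM in bEnd.3, made up most of the UV2 sum. The markers that were not tested stayed below 1 CPM in every library and went both ways. Acta2 had 39 counts in UV2 and 0 in bEnd.3, whereas Myh11 had 4 and 16 and Col1a1 had 9 and 16. The 10 blood cell markers summed to 609 to 631 CPM in UV2 and 91.7 to 160 CPM in bEnd.3, with Cd68 and Lyz2 higher. Cd3e and the macrophage marker Adgre1 were at 0, and Ptprc had 0 counts in UV2 and 1 count in bEnd.3. Csf1r, also of macrophages, had 0.561 CPM in UV2 and 0.477 CPM in bEnd.3 and did not pass. Itgam, on the same list, was below the filter with 19 counts in UV2 and 3 counts in bEnd.3. Lyz2 (330 CPM in UV2, 1.27 CPM in bEnd.3) and Cd68 (285 CPM in UV2, 116 CPM in bEnd.3) made up most of the sums. The globin gene Hba-a1 also passed, with 0.296, 0.776 and 3.93 CPM in UV2, against 0.0448, 0.448 and 0.0679 CPM in bEnd.3. Its libraries overlapped, UV2 replicate 3 was far above the rest, and the call was lost without UV2 replicate 3 (1.49), bEnd.3 replicate 1 (2.78) or bEnd.3 replicate 3 (2.72), and with limma-voom (2.91). Epithelial and neural markers summed to less than 1 CPM in every library. The part of other cells in the forkhead results was not tested, and in bulk RNA fewer cells of a type and less RNA per cell cannot be told apart.

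Of the 17 tested forkhead genes, 7 were higher in UV2 (Foxf1, Foxp1, Foxd2, Foxo1, Foxj2, Foxn3 and Foxj3) and 2 were lower (Foxm1 and Foxk1), and 8 did not pass. Over all tested genes the test called 67.1%, with 33.9% higher and 33.3% lower, so the family did not hold more calls than that background. Foxf1 alone passed a test for a change beyond 2-fold, which 19.4% of all tested genes passed (10.6% higher). For 10 of the 17, no UV2 library lay within the bEnd.3 range, against 73.2% of all tested genes, and 1 of these 10, Foxo4, did not pass the test. The median log2 fold change was 0.33 over the tested forkhead genes and -0.01 over all tested genes, and the median size was 0.36 against 0.50.

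**Figure D1:**
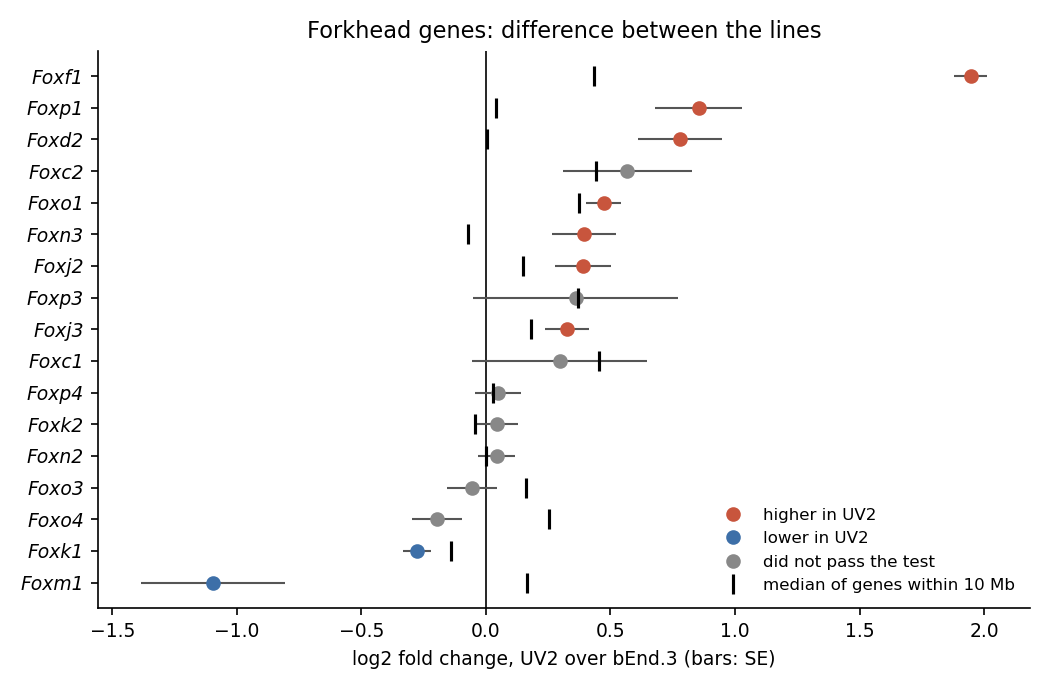
Log2 fold change, UV2 over bEnd.3, of the 17 tested forkhead genes; points are fitted values, bars are SE, and colour marks the call at an adjusted p under 0.05. Foxf1 lies farthest to the right at 1.95 and Foxm1 farthest to the left at -1.10.

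Foxf1, a factor needed for the vessels of the yolk sac, lung and gut in mouse, differed by more than any other tested forkhead gene. It lies at chr8:121084386-121088154 (mm10). Its level was 152.8, 163.0 and 160.5 CPM in UV2, against 40.2, 39.9 and 43.5 CPM in bEnd.3. Every UV2 library lay far above every bEnd.3 library, and the libraries of a line lay close together. The log2 fold change was 1.95 (SE 0.07, adjusted p = 3.76e-07), or 3.85-fold. The tested genes within 10 Mb were themselves higher in UV2 on the median, with a log2 fold change of 0.43 over 128 genes. With that local median removed, Foxf1 still passed at 1.51.

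Foxf1, Foxc2 and Foxl1 lie in one cluster of 46.3 kb on chromosome 8. Within 500 kb of it the table holds 15 genes, of which 11 were tested: 7 were higher in UV2, 1 was lower and 3 did not pass. Over all tested genes, 33.9% were higher and 33.3% were lower. Fendrr, a long noncoding RNA transcribed away from Foxf1 and needed for lateral mesoderm in mouse, had 56.6, 54.1 and 51.7 CPM in UV2, against 6.10, 6.64 and 8.55 CPM in bEnd.3. Its difference was larger than that of Foxf1, at 2.92 (SE 0.13, adjusted p = 1.35e-06). The Fendrr and Foxf1 genes are 1275 bases apart in RefSeq and do not overlap. Mthfsd, a gene between Foxf1 and Foxc2 with a predicted folate enzyme domain, had 30.7 ± 1.93 CPM in UV2 and 18.8 ± 0.165 CPM in bEnd.3 (log2 fold change 0.70, SE 0.08). Irf8, an interferon regulatory factor of myeloid cells on the other side of Fendrr, had 69.2 ± 8.23 CPM in UV2 and 22.4 ± 4.71 CPM in bEnd.3 (log2 fold change 1.63, SE 0.16). Farther out, Zcchc14 was higher at 1.45, Fbxo31 at 0.85 and Map1lc3b at 0.59, and the DNA replication gene Gins2 was lower at -0.52. Map1lc3b and Zcchc14 overlap in RefSeq, so reads there may be split between them. Emc8 at -0.03 and Cox4i1 at 0.06 did not pass. The differences were therefore not of one size along the region: they stood highest at Fendrr and Foxf1 and were small at Mthfsd and Foxc2 beside them.

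**Figure D2:**
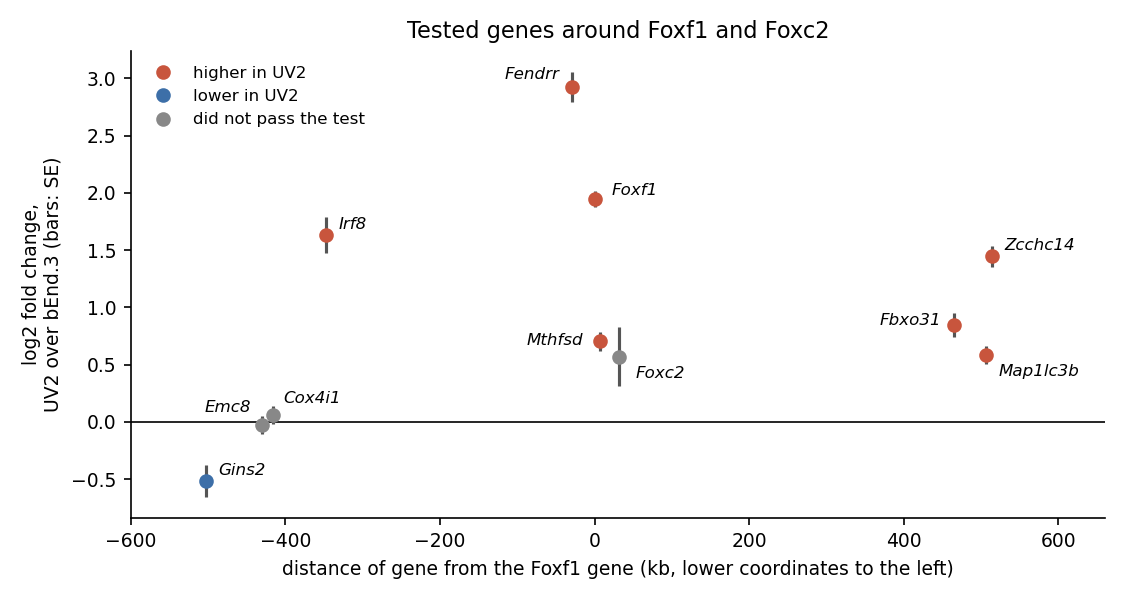
Log2 fold change, UV2 over bEnd.3, of the 11 tested genes around Foxf1 against their distance from it in kb; points are fitted values and bars are SE. Fendrr at 2.92 and Foxf1 at 1.95 stand above their close neighbours Mthfsd at 0.70 and Foxc2 at 0.57.

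Foxc2, which specifies lymphatic valves and arterial cells, did not pass. It lies at chr8:121116171-121118895. It had 7.44, 6.83 and 8.75 CPM in UV2, against 7.35, 3.54 and 4.72 CPM in bEnd.3, and bEnd.3 replicate 1 overlapped the UV2 libraries. The log2 fold change was 0.57 (SE 0.26, adjusted p = 0.0833). Without bEnd.3 replicate 1 it was 0.89 and passed, and it also passed with limma-voom at 0.64. With the local median removed it was 0.13 and did not pass. Foxl1, the last gene of the cluster and a factor of gut mesenchyme, had 1 count in UV2 and 1 count in bEnd.3 over all libraries.

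The other FoxF and FoxC genes sit with Foxq1 in a cluster of 252 kb on chromosome 13. Foxf2 and Foxq1, both enriched in brain endothelium in vivo, had 0 counts in every library of UV2 and of bEnd.3. Taking 3 counts per line as the limit of a count of 0, this allows up to 0.0427 CPM in UV2 and 0.0393 CPM in bEnd.3. Foxc1, the paralog of Foxc2 that acts in vessels and in the mural cells around them, lies at chr13:31806646-31810635 and was low in both lines. It had 2.45, 1.31 and 2.20 CPM in UV2, against 1.12, 2.40 and 1.36 CPM in bEnd.3. The libraries overlapped, and the log2 fold change of 0.30 (SE 0.35) did not pass. Gmds, an enzyme of fucose synthesis that is the next gene, was higher in UV2: it had 30.1 ± 1.96 CPM in UV2 and 6.76 ± 2.54 CPM in bEnd.3 (log2 fold change 2.16, SE 0.23, adjusted p = 0.000106).

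The start regions of Foxf2, silent in both lines, and Foxo1, among the most abundant forkhead RNAs of both, are shown because they hold similar numbers of CG steps at very different RNA levels. Both are the 250 bases before the RefSeq start on the plus strand of GRCm38.p6, with CG steps in capitals, at chr13:31625566-31625815 for Foxf2 and chr3:52268087-52268336 for Foxo1.
Foxf2: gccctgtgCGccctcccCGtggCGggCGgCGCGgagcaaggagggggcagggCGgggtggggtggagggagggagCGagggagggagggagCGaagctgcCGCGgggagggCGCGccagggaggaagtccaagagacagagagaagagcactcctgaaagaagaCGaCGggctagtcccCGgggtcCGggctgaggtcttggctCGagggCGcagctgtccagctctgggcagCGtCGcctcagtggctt
Foxo1: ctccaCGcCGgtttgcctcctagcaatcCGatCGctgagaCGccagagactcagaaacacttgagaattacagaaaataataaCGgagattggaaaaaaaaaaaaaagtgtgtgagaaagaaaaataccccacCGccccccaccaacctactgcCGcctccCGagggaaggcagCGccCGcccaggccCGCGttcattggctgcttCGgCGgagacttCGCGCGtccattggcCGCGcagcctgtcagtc
The Foxf2 stretch holds 21 CG steps and the Foxo1 stretch holds 20. In the full windows of 300 bases, which run 50 bases past the start, Foxf2 has 27 and Foxo1 has 31. For genes with several windows, the window with the most CG steps was taken. The median was then 22 over 9639 tested genes and 8 over 27025 genes. Windows were found for 28 forkhead genes, and the 11 tested ones had a median of 33 (6 to 59), against 16 (3 to 31) in the 17 untested ones. No methylation or binding was measured here.

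The FoxO genes encode the AKT-regulated factors that act on quiescence, metabolism and survival. Foxo1, which restrains endothelial growth in mouse, lies at chr3:52268337-52350109. It had 154.5, 148.9 and 153.7 CPM in UV2, against 101.8, 117.1 and 110.5 CPM in bEnd.3. The lines did not overlap. The log2 fold change was 0.47 (SE 0.07, adjusted p = 0.000595), or 1.39-fold. The 38 tested genes within 10 Mb had a median of 0.38, and with that removed Foxo1 stood at 0.10 and did not pass. Foxo3, which overlaps Foxo1 in its targets, had 20.6, 21.6 and 20.8 CPM in UV2, against 19.6, 21.7 and 24.1 CPM in bEnd.3. The lines overlapped, and its log2 fold change of -0.06 (SE 0.10) did not pass. Foxo4, an X-linked member, had 25.8, 25.8 and 24.1 CPM in UV2, against 28.3, 26.0 and 32.5 CPM in bEnd.3. All UV2 libraries lay below all bEnd.3 libraries by a small margin, and the log2 fold change of -0.20 (SE 0.10, adjusted p = 0.12) did not pass. With the local median removed it was -0.45 and passed. Foxo6, mainly neuronal, was below the filter, with 18 counts in UV2 and 31 counts in bEnd.3 (ratio 0.631, exact 95% counting interval 0.332 to 1.16).

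Of the 32 listed genes regulated by FOXO factors 29 were tested, with 10 higher, 11 lower and 8 not passing, and a median of -0.08 against -0.01 over all tested genes. These counts are near the background, in which 33.9% of all tested genes were higher and 33.3% were lower. Among those higher were Angpt2, a ligand that opposes Tie2 signalling (log2 fold change 4.21, SE 0.46), and Fbxo32, a ubiquitin ligase of muscle atrophy (2.12, SE 0.15). Angpt2 had 128, 110.0 and 102 CPM in UV2, against 12.0, 2.97 and 3.73 CPM in bEnd.3. Its libraries did not overlap, and without bEnd.3 replicate 1, the highest of that line, the log2 fold change was 5.07. Cited2, a transcriptional coregulator, was also higher (1.94, SE 0.14). Fbxo32 had 29.6, 23.2 and 23.1 CPM in UV2, against 5.83, 5.01 and 6.59 CPM in bEnd.3. Among those lower was Cdkn1a, the p21 inhibitor of cyclin-dependent kinases and also a target of p53. It had 23.6, 28.0 and 31.9 CPM in UV2, against 438.6, 399 and 402.6 CPM in bEnd.3, with a log2 fold change of -3.89 (SE 0.12, adjusted p = 2.25e-07). The death ligand gene Tnfsf10 at -2.26 (SE 0.29) and the mitophagy receptor gene Bnip3 at -1.28 were lower too. Cdkn1b, which encodes the p27 inhibitor, was higher at 0.67 (SE 0.07), so the listed inhibitors of the cell cycle went in opposite directions. Nos3, the endothelial nitric oxide synthase, was higher at 0.79. Klf2, a flow-induced factor, had 173 ± 29.5 CPM in UV2 and 214 ± 42.6 CPM in bEnd.3 and did not pass, but it passed without UV2 replicate 3.

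The letters TGTTTAC, on either strand, were found in the 300-base start windows of 6 of the 28 FOXO targets that have one (21.4%). This compares with 4.05% of all 27025 genes with a window and 3.07% of the 9639 tested ones. A gene counted if any of its windows held the letters. The targets are known for FOXO regulation, so the share describes the list and not these cells. A match is letters in a window and not a shown site. The stretches of 5 are printed to set the letters beside the direction of each gene. They read 5′ to 3′ on the gene's own strand, the plus strand of GRCm38.p6, with TGTTTAC or its reverse complement in capitals.
Bcl2l11, chr2:128125800-128125829: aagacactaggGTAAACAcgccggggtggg
Bbc3, chr7:16310083-16310112: tctggcgggttTGTTTACaaacaatggggt
Sesn1, chr10:41810585-41810614: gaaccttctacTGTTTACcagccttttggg
Txnip, chr3:96557825-96557854: ttggaggcctgGTAAACAagggccaagtag
Mxi1, chr19:53329453-53329482: cgcgcggagaaGTAAACAaaccgcgcgcgg
Bcl2l11, which encodes the death factor BIM, was higher in UV2, at 40.5 ± 2.35 CPM in UV2 and 20.7 ± 3.53 CPM in bEnd.3 (log2 fold change 0.97). Bbc3, which encodes the death factor PUMA, was lower at -0.96, as were the stress gene Sesn1 at -0.90 and the thioredoxin inhibitor gene Txnip at -0.65. Mxi1, a MYC antagonist, stood at -0.34 and did not pass. Genes whose windows hold these letters were thus found on both sides.

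Genes that act on FOXO proteins include kinases, 14-3-3 proteins and partners. All 26 listed were tested, with 7 higher, 6 lower and 13 not passing, and a median of 0.09. Over all tested genes 67.1% were called, 33.9% higher and 33.3% lower, so the list did not hold more calls than that background. Akt1, which encodes the kinase that moves FOXO out of the nucleus, had 278 ± 8.11 CPM in UV2 and 299 ± 29.2 CPM in bEnd.3. It did not pass. Sgk1, an AKT-like kinase, was lower at -0.89, and Mdm2, a ubiquitin ligase for p53 and FOXO proteins, was lower at -1.33 (SE 0.06). Mapk8, which encodes the JNK1 kinase, was higher at 1.00 (SE 0.10), but with the local median removed it did not pass.

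The FoxP genes encode zinc finger and leucine zipper repressors that pair with each other. Foxp1 lies at chr6:98925342-99522746 and acts in endothelial, cardiac and lymphoid cells in mouse. It had 275, 299 and 309 CPM in UV2, against 119, 202 and 168 CPM in bEnd.3. The lines did not overlap, and the bEnd.3 libraries spread more, with replicate 1 lowest. The log2 fold change was 0.85 (SE 0.17, adjusted p = 0.00295), or 1.81-fold, and leaving out one library at a time gave 0.67 to 1.05. Foxp4, its broadly expressed relative, had 46.4, 38.7 and 39.4 CPM in UV2, against 42.6, 40.1 and 37.8 CPM in bEnd.3. The lines overlapped, and its log2 fold change of 0.05 turned to -0.02 when scaled by total counts. Foxp3, the factor of regulatory T cells, stayed under 1 CPM, at 0.527 ± 0.205 CPM in UV2 and 0.411 ± 0.129 CPM in bEnd.3. Its expected counts were fractional in all 6 libraries, so some of its reads were shared with other genes. Foxp2, of neurons and lung, had 1 count in UV2 and 0 in bEnd.3.

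Foxm1, which drives genes of mitosis, was lower in UV2. It lies at chr6:128362994-128375886. It had 35.5, 37.1 and 15.5 CPM in UV2, against 67.1, 65.2 and 55.7 CPM in bEnd.3. The lines did not overlap, and UV2 replicate 3 lay well below the other UV2 libraries. The log2 fold change was -1.10 (SE 0.29, adjusted p = 0.0105). Without UV2 replicate 3 it was -0.78 and passed. Rhno1, a checkpoint gene that starts 82 bases away on the other side of the same start region, had 26.0 ± 0.88 CPM in UV2 and 25.4 ± 2.35 CPM in bEnd.3 (log2 fold change 0.04) and did not pass.

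Of the 25 listed targets and partners of FOXM1, all were tested, and 21 were lower, 1 was higher and 3 did not pass. The median was -1.26 against -0.01 over all tested genes, of which 33.3% were lower and 33.9% higher. Cdc25c, a phosphatase that opens mitosis, was lower at -1.94 (SE 0.41), the centrosome kinase gene Nek2 at -1.83 (SE 0.36), and the MuvB partner gene Mybl2 at -1.72 (SE 0.26). Nek2 had 9.68, 11.5 and 3.51 CPM in UV2, against 32.7, 29.2 and 25.4 CPM in bEnd.3. The proliferation marker Mki67 had 87.9, 107.8 and 27.3 CPM in UV2, against 235, 248 and 209 CPM in bEnd.3, a log2 fold change of -1.64 (SE 0.42, adjusted p = 0.00915). In both genes UV2 replicate 3 was the lowest library and the lines did not overlap. Plk1, the polo kinase gene, was lower at -1.24 (adjusted p = 0.0273), a call lost without bEnd.3 replicate 1 (-1.12) or bEnd.3 replicate 2 (-1.25), and with the local median removed. The smallest falls among those called were in Lin37 at -0.43 and Cdc25b at -0.42. Rbbp4, a histone-binding subunit of MuvB and of several other complexes, was the gene that was higher, at 0.70 (SE 0.06), and with the local median removed it did not pass. Ccnb1, the mitotic cyclin gene, had 21.1, 26.0 and 6.82 CPM in UV2, against 31.4, 24.6 and 20.5 CPM in bEnd.3, and did not pass. The list summed to 829, 870 and 454 CPM in UV2, against 1454, 1398 and 1231 CPM in bEnd.3, so UV2 replicate 3 stood apart over the list as well as in Foxm1.

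**Figure D3:**
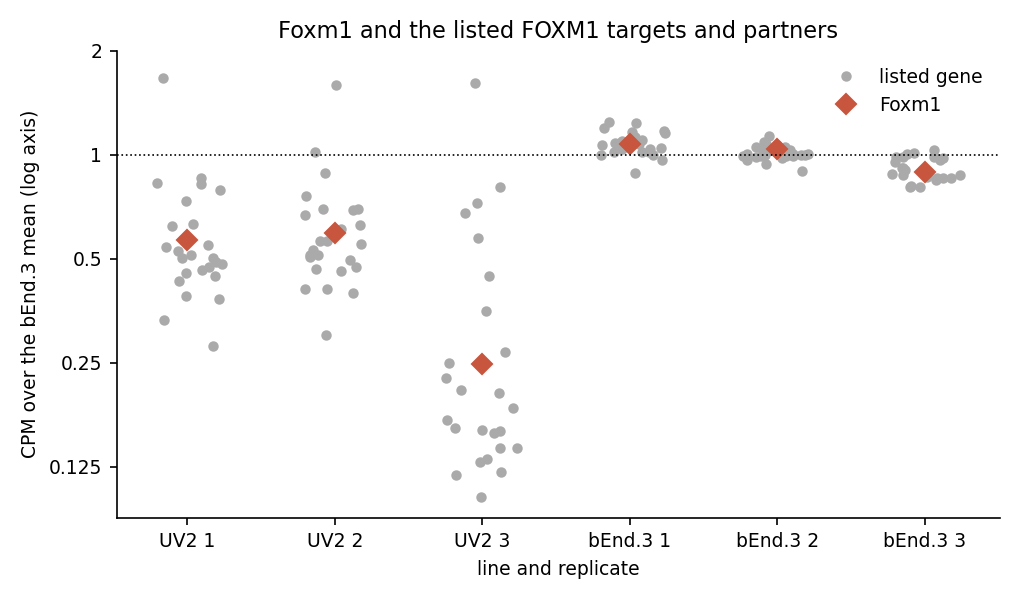
CPM in each library over the bEnd.3 mean of the same gene (log axis), for Foxm1 (diamonds) and the 25 listed FOXM1 targets and partners (circles, spread sideways to be seen). Most circles and the Foxm1 diamonds lie below 1 in UV2, lowest in UV2 replicate 3, where the list summed to 454 CPM against 829 and 870 CPM in the other UV2 libraries.

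Many promoters of late cell cycle genes carry the cell cycle genes homology region, through which MuvB complexes with FOXM1 act without a forkhead core. Its letters TTTGAA, on either strand, were in the start windows of 13 of the 20 listed genes that have one (65%). Counted in the same way, they were in 20.2% of all genes with a window and 14.2% of the tested ones. TGTTTAC was in 0 of the 20. On the gene strand TTTGAA was again in 65% of the list, against 11.6% of all genes with a window. The list was drawn up from known FOXM1 targets and partners, so these shares describe the list and not these cells. The stretches around the match closest to the RefSeq start are shown for 5 listed genes, on the gene's own strand in GRCm38.p6 with TTTGAA in capitals. In a check of some windows, the bases after the start were found in a GENCODE transcript for Foxf2, Foxo1, Foxo3 and Top2a. They were not found for Ccnb2 and Plk1, so the starts of these genes are less certain. Cdk1, Cenpf and Mki67 were not checked.
Ccnb2, chr9:70421533-70421562, minus strand: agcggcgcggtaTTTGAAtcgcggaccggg
Plk1, chr7:122159453-122159482, plus strand: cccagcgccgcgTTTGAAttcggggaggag
Cdk1, chr10:69352910-69352939, minus strand: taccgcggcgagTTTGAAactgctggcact
Cenpf, chr1:189688067-189688096, minus strand: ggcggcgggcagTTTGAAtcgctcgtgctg
Mki67, chr7:135716460-135716489, minus strand: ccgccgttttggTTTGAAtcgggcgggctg
Each of these 5 genes was lower in UV2. Ccnb2, a mitotic cyclin gene, had 10.2 ± 5.47 CPM in UV2 and 29.4 ± 3.82 CPM in bEnd.3 (log2 fold change -1.54). Cdk1, the mitotic kinase gene, had 36.9 ± 15.1 CPM in UV2 and 93.3 ± 11.8 CPM in bEnd.3 (-1.34). Cenpf, a kinetochore gene, had 23.7 ± 13.9 CPM in UV2 and 52.5 ± 2.35 CPM in bEnd.3 (-1.16, SE 0.42). It passed narrowly (adjusted p = 0.0412), and UV2 replicate 3 was its lowest library at 8.21 CPM. Cenpa, a centromere histone gene, and Cks1b, a kinase subunit gene, also have the letters in their windows and did not pass. Cenpa had 18.4 ± 9.61 CPM in UV2 and 36.5 ± 7.84 CPM in bEnd.3 (-0.99). Cks1b had 22.2 ± 7.44 CPM in UV2 and 30.4 ± 3.85 CPM in bEnd.3 (-0.46). Listed genes for which no match was found were lower as well, among them Nek2 at -1.83 and Mybl2 at -1.72. Also without a match, Ccnb1 did not pass and Rbbp4 was higher. Only 20 of the 25 listed genes have a start window, so a gene without a match may have had no window to search. Whether the letters bear on the differences was not tested.

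The FoxK genes act on autophagy and glycolysis genes. Foxk1, at chr5:142401497-142462015, was the other lower member, with 70.6, 67.3 and 69.3 CPM in UV2, against 82.9, 84.0 and 84.1 CPM in bEnd.3. The difference was small but the libraries of each line lay close together, and the log2 fold change was -0.28 (SE 0.06, adjusted p = 0.00309). With the local median of -0.14 removed it was -0.14 and did not pass. Foxk2, its paralog, had 112, 105 and 101 CPM in UV2, against 112, 102.5 and 93.8 CPM in bEnd.3. The lines overlapped, and its log2 fold change of 0.04 turned to -0.02 with total counts.

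The tested FoxJ and FoxN genes were Foxj2, Foxj3, Foxn2 and Foxn3, of which Foxn2 did not pass. Foxj2 had 42.5, 44.1 and 48.6 CPM in UV2, against 29.2, 35.5 and 38.5 CPM in bEnd.3 (log2 fold change 0.39, SE 0.11, adjusted p = 0.0162). Foxj3, which acts in muscle and germ cells in mouse, had 49.98, 53.2 and 56.6 CPM in UV2, against 38.5, 45.4 and 43.5 CPM in bEnd.3 (0.33, SE 0.09, adjusted p = 0.011). In neither gene did the lines overlap, and neither passed with the local median removed. Foxn3, a repressor first known as a checkpoint suppressor, had 11.0, 11.2 and 11.7 CPM in UV2, against 7.31, 8.96 and 9.50 CPM in bEnd.3 (0.39, SE 0.13, adjusted p = 0.0262). Its call was lost with total counts and without UV2 replicate 2 (0.40), UV2 replicate 3 (0.37) or bEnd.3 replicate 1 (0.29). Foxn2 had 47.5, 49.7 and 46.4 CPM in UV2, against 48.6, 47.7 and 43.2 CPM in bEnd.3. The lines overlapped, and its log2 fold change of 0.04 turned to -0.02 with total counts.

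Foxj1, the master factor of motile cilia, was below the filter with 45 counts in UV2 and 4 counts in bEnd.3 (means of 0.642 CPM in UV2 and 0.0543 CPM in bEnd.3). The ratio was 12.2, with an exact 95% counting interval of 4.46 to 46.8 that covers counting error only. Foxd1, a factor of kidney stroma, had 11 counts in UV2 and 0 counts in bEnd.3, at least 3.98-fold higher against a limit of 3 counts in bEnd.3. Both were under 1 CPM, and with no filter on low counts both were called higher. Foxd2, a factor of embryonic mesenchyme, passed the filter and lies at chr4:114906280-114908898. It had 3.80, 3.25 and 3.16 CPM in UV2, against 1.97, 2.08 and 1.90 CPM in bEnd.3. The lines did not overlap, and the log2 fold change was 0.78 (SE 0.17, adjusted p = 0.00411). The antisense transcript Foxd2os starts 358 bases from Foxd2 and had 34.7 ± 1.76 CPM in UV2 and 16.3 ± 1.55 CPM in bEnd.3 (log2 fold change 1.09, SE 0.10). The RefSeq genes do not overlap, but the strand setting of the counting is not given, so reads near the shared start cannot be told apart with certainty.

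The forkhead genes with 0 counts in all 6 libraries included Foxa1, Foxb1, Foxb2, Foxd3, Foxe1, Foxe3, Foxf2, Foxi1, Foxi2, Foxi3, Foxl2, Foxq1 and Foxr1. They include known factors of endoderm (Foxa1), neural crest (Foxd3), thyroid (Foxe1), lens (Foxe3), inner ear (Foxi1) and ovary (Foxl2). A further 9 had 1 to 3 counts in all: Foxa2, Foxa3, Foxd4, Foxl1, Foxn1, Foxn4, Foxp2, Foxr2 and Foxs1. Foxh1, a partner of SMAD proteins in the early embryo, had 3 counts in UV2 and 3 in bEnd.3. At least 1 count was seen for 25, 25 and 23 of the 44 genes in the UV2 libraries and for 19, 22 and 22 in the bEnd.3 libraries.

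Levels of different genes were compared per kb of exon. In UV2 the order was Foxf1 at 65.7 ± 2.21 CPM per kb, Foxp1 at 37.5 ± 2.20, Foxk2 at 21.1 ± 1.08 and Foxo1 at 17.6 ± 0.351, with Foxp4 next at 10.3. With the longest transcript as length, chosen after seeing the data, the first 4 kept their order and Foxj3 at 11.1 stood before Foxp4 at 10.4. In bEnd.3 it was Foxp1 at 20.8 ± 5.33, Foxk2 at 20.4 ± 1.84, Foxf1 at 17.1 ± 0.834, Foxm1 at 13.5 ± 1.32, Foxo1 at 12.7 ± 0.881 and Foxk1 at 11.0. The first 4 of UV2 were apart by more than their SD, whereas in bEnd.3 Foxp1 was not apart from Foxk2 or Foxf1, nor Foxm1 from Foxo1. By mean, Foxf1 ranked first among the forkhead genes of UV2 and below Foxp1 and Foxk2 in bEnd.3. In bEnd.3 replicate 1, however, Foxf1 at 16.6 CPM per kb stood above Foxp1 at 15.1. Among all tested genes with an exon length Foxf1 stood at percentile 91.5 in UV2 and 67.6 in bEnd.3.

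The forkhead genes together summed to 210.4, 214.7 and 211.5 CPM per kb in UV2, against 140.0, 150.3 and 144.4 CPM per kb in bEnd.3. Foxf1 alone was 30.1%, 31.4% and 31.4% of the sum in UV2, against 11.9%, 11.0% and 12.5% in bEnd.3. The FoxK genes took 15.0%, 13.9% and 13.8% in UV2, against 23.7%, 20.9% and 20.6% in bEnd.3. Foxm1 took 3.63%, 3.72% and 1.58% in UV2, against 10.3%, 9.33% and 8.29% in bEnd.3. In these 3 shares the lines did not overlap. The FoxK level itself did overlap, at 29.2 to 31.5 CPM per kb in UV2 and 29.7 to 33.2 in bEnd.3. The FoxO share was 13.2% to 13.7% in UV2 and 16.5% to 18.3% in bEnd.3. The FoxN share was 5.00% to 5.20% in UV2 and 6.70% to 7.47% in bEnd.3, and the FoxD share was 0.598% to 0.709% and 0.520% to 0.560%. In these shares, too, the lines did not overlap. The FoxP share was 22.2%, 22.3% and 23.3% in UV2, against 18.4%, 23.8% and 21.4% in bEnd.3, and there they did. Shares of one sum are tied to each other, so a larger Foxf1 share lowers the rest.

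**Figure D4:**
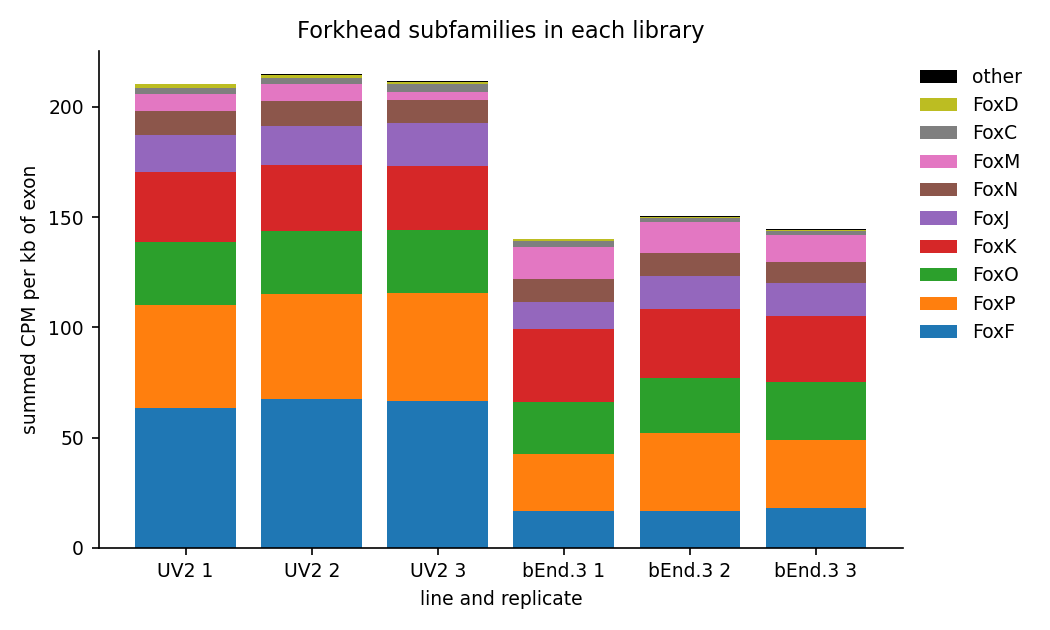
Summed level of each forkhead subfamily (CPM per kb of exon), one stacked bar per library with FoxF at the bottom. The bars reach 210.4 to 214.7 CPM per kb in UV2 and 140.0 to 150.3 CPM per kb in bEnd.3, and FoxF makes up 30.1% to 31.4% of them in UV2 and 11.0% to 12.5% in bEnd.3.

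**Figure D5:**
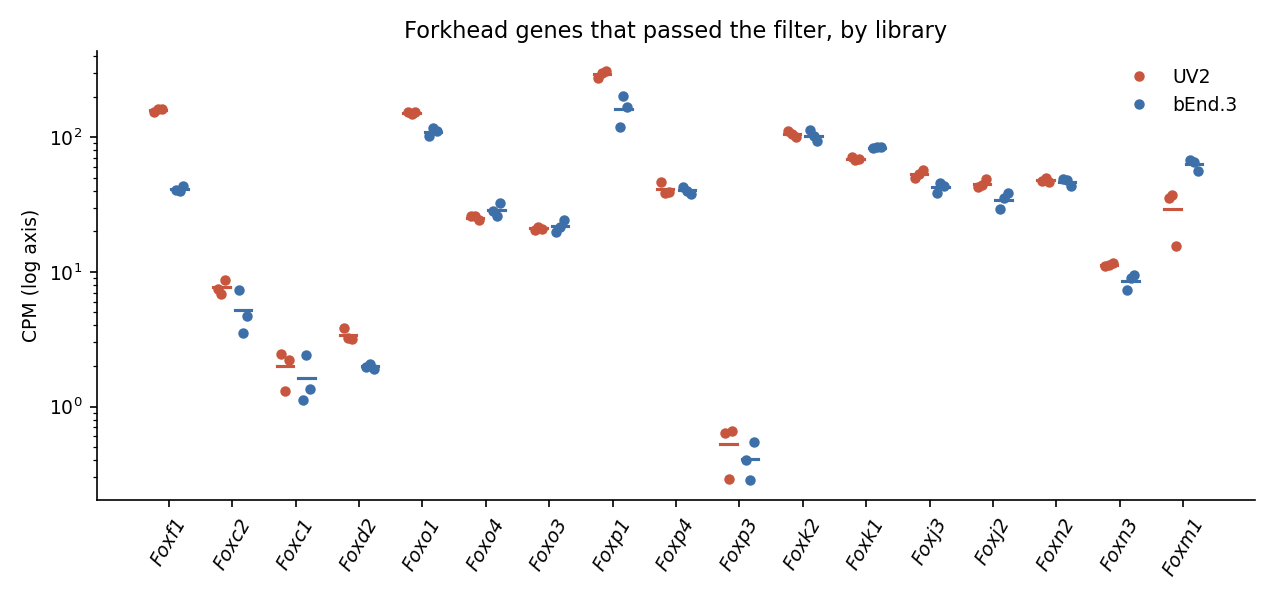
Level of each tested forkhead gene in each library (CPM, log axis); points are libraries and short lines are means of 3. UV2 points of Foxf1 (152.8 to 163.0 CPM) lie above all bEnd.3 points (39.9 to 43.5 CPM), while those of Foxo3, Foxp4, Foxk2 and Foxn2 overlap.

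Of 20 listed endothelial genes tied to FOXC and FOXF factors, 18 were tested, with 6 higher, 5 lower and 7 not passing, and a median of 0.19. These counts do not exceed the shares over all tested genes, 33.9% higher and 33.3% lower. Among those called, Fendrr had the highest log2 fold change, followed by Flt4, the lymphatic VEGF receptor gene, which had 446 ± 29.1 CPM in UV2 and 212 ± 18.4 CPM in bEnd.3 (log2 fold change 1.07). The connexin gene Gja4 stood at 1.25 (SE 0.50) but did not pass, and its libraries overlapped. Itgb3, an integrin subunit gene that FOXC2 binds in mouse, was higher at 0.98. Lower were Cldn5 at -11.97, the Notch effector gene Hey2 at -3.98 and Pdgfb, which recruits mural cells, at -2.38. Cxcr4, a chemokine receptor gene known as a FOXC target, had 0 counts in UV2 and 68 counts in bEnd.3, at least 20.9-fold lower in UV2 against the same limit; it lies below 1 CPM and was named after its values were seen. Tek, the Tie2 receptor gene, had 438 ± 59.5 CPM in UV2 and 329 ± 78.2 CPM in bEnd.3, and Dll4, an arterial Notch ligand gene, had 219 ± 55.8 CPM in UV2 and 159 ± 44.9 CPM in bEnd.3. Neither passed. Tek passed without bEnd.3 replicate 3, and Dll4 passed without UV2 replicate 1 or without bEnd.3 replicate 1.

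Transcription factors of brain endothelium other than forkhead genes were looked at because Foxf2 and Foxq1 were at 0. Of 11 listed, 8 were tested, with 3 higher, 4 lower and 1 not passing. Over all tested genes 67.1% were called, 33.9% higher and 33.3% lower, and a list this short cannot be set apart from that. Sox17, a SOX factor of arteries and of the blood-brain barrier, had 0.423, 0.242 and 0.308 CPM in UV2, against 61.8, 65.3 and 52.7 CPM in bEnd.3 (log2 fold change -7.49, adjusted p = 8.9e-08). Its relative Sox7 was higher at 2.76.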

How the data were processed

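Per the labels' protocols, RNeasy Micro columns and the TruSeq Stranded mRNA kit were used. Trim Galore, STAR, RSEM and mm10 are named, per the submitters' processing notes. Not given in the sources used here are the strand setting, the annotation and any version. Values are unnormalized expected counts per gene symbol, as the authors deposited them. Such counts share reads that fit several genes, so overlapping genes and close copies are uncertain, and BALB/c reads differ from the C57BL/6 reference at strain variants.

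Lines and replicate numbers were taken from the labels. Expected counts were rounded, filtered with edgeR's filterByExpr (12720 of 24411 genes left) and scaled by TMM (factors 0.969 to 0.995 in UV2 and 1.016 to 1.027 in bEnd.3). One edgeR quasi-likelihood fit with line as the only term covered all genes, and glmTreat on it tested for changes beyond 2-fold. The biological coefficient of variation was 0.124. Libraries of a line differed by a chi-square of 11.3 to 38.4 for each degree of freedom, more than sampling noise gives. Reads are not independent molecules, so intervals and floors cover counting error only. The members and gene lists were chosen with earlier results of these data known.

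From each pathway list the highest and lowest called genes of at least 1 CPM were named (3 each for FOXO targets, FOXM1 and FOXC/FOXF), with Tek, Angpt2, Klf2, Nos3, Cdkn1b, Mki67, Ccnb1, Plk1, Dll4, Cldn5, Pecam1, Cdh5, Akt1, Sgk1 and the tested genes within 500 kb of both forkhead clusters. Some genes of the family, the lists and the rule are not reported here. Gja4 and genes named beside sequences or markers were chosen after their values were seen. Positions (99.6% of tested genes matched by symbol or synonym) and start windows came from RefSeq, GRCm38.p6, the assembly of mm10, and exon lengths from GENCODE vM21. Alternatives were edgeR's RLE size factors in place of TMM, total counts, no filter, a filter of 1 CPM in 3 libraries and a replicate block. Others were each library left out, the median of tested genes within 10 Mb removed (windows with at least 20 genes), DESeq2 and limma-voom. Use of the longest transcript as gene length was added after seeing the data. The procedure was tested on simulated data. Python 3.11.15 with matplotlib 3.10.9 and R 4.3.3 with DESeq2 1.42.0, limma 3.58.1 and edgeR 4.0.16 were used.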

Additional observations from a re-analysis of the deposited data

How the results depend on the processing

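Over the alternatives, 216 of 237 values of the 17 tested forkhead genes kept their direction and their side of the threshold. Direction turned in 9 values of 6 forkhead genes, none of which passed the test. With the local median removed these were Foxc1 (-0.16) and Foxp3 (-0.0063), and with total counts Foxk2 (-0.020), Foxn2 (-0.022) and Foxp4 (-0.015). Among other named genes, total counts turned Cdh5 (-0.036) and Cox4i1 (-0.0074), and removing the local median turned Cdh5 (-0.089), Akt1 (0.12) and Cox4i1 (-0.37). With one library left out at a time, values crossed 0 for Foxk2 (-0.021 to 0.11) and Foxn2 (-0.011 to 0.075), both below 0 without bEnd.3 replicate 3. They crossed 0 also for Foxo3 (-0.13 to 0.021), Foxp4 (-0.027 to 0.099), Cdh5 (-0.00070 to 0.086), Emc8 (-0.081 to 0.021) and Cox4i1 (-0.012 to 0.11).

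With the local median removed, 4 forkhead genes were higher in UV2, 10 FOXO regulators were lower and 0 FOXM1 genes were higher. With total counts 4 FOXO regulators were higher, and with the 1 CPM filter 3 FOXC/FOXF genes were lower and Foxp3 had no value. With no filter 2 forkhead genes passed beyond 2-fold, Foxf1 and Foxj1. The cause was not tested, except that filters change which genes are tested. With one library left out at a time, 6 to 8 forkhead genes were higher and 2 lower, 1 to 2 passed beyond 2-fold upward (Foxj1 entered the test without UV2 replicate 1 or bEnd.3 replicate 2), and 17 to 22 FOXM1 genes were lower.

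Same-numbered libraries of the lines deviated together with r = 0.0854, 0.161 and 0.200, against -0.222 to 0.0624 for other pairs. Each library thus matched best with its own number, but weakly. The main fit has no replicate term, and the labels do not say whether the numbers pair the libraries. With the replicate block 8 forkhead genes were higher, Foxc2 among them (0.61), and 2 lower. Members under 1 CPM are limited by depth.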
